A study of Mus musculus with 8 samples.

Results

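The milk protein genes examined here are 10 genes chosen by name, with earlier results of these data known. They are the caseins Csn1s1, Csn1s2a, Csn1s2b, Csn2 and Csn3, the whey protein genes Wap and Lalba, and the mucin gene Glycam1. The others are Mfge8 and Btn1a1, whose products coat the milk fat globule. All 10 were found by symbol among the 35539 gene IDs of the deposited table, and all 10 were described in each of 8 bulk mouse mammary tumors. The control tumors, numbered 1 to 4, were from Brca1f/f Trp53+/- mice. Tumors 5 to 8 came from HMMR Tg/Tg Brca1f/f Trp53+/- mice (HMMR-Tg tumors), which also carry a human HMMR cDNA in the Rosa26 locus behind a loxP-flanked stop cassette. According to the methods of the study, every mouse of both genotypes carried Blg-Cre, a Cre driven by the promoter of the milk whey protein β-lactoglobulin and active in lactation. Cre removes the floxed Brca1 exons and, in HMMR-Tg mice, the stop cassette, so all 8 tumors derive from mice whose Cre driver is itself a milk gene promoter. The mice were of mixed background, and all had lactated, which activates the Cre, before any tumor was collected. The labels give frozen tumors from age-matched mice, without an age. According to the study, the sequenced tumors of both genotypes were diagnosed at a similar average number of weeks after induction. The labels do not say which mouse each tumor came from, so the p-values below measure only the spread between these tumors.

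Milk proteins are made by the alveolar cells of the luminal epithelium. Prolactin, acting through its receptor and the kinase JAK2, activates the transcription factor STAT5, which together with the glucocorticoid receptor, ELF5, C/EBPβ and NFI turns on casein and whey genes in late pregnancy and lactation. The caseins form the calcium-carrying micelle of milk, with κ-casein on its surface. After weaning, milk gene transcription falls and the alveoli are removed during involution.

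The 5 casein genes lie in a cluster on chromosome 5, within 266.4 kb between positions 88095249 and 88361690 of mouse build mm9. From the lower coordinate, Csn1s1 (88095249 to 88111598, plus strand) was followed by Csn2 (88121647 to 88128446, minus strand), Csn1s2a (88203592 to 88217822, plus strand), Csn1s2b (88237107 to 88253451, plus strand) and Csn3 (88354604 to 88361690, plus strand). Between Csn1s2b and Csn3 the annotation places 3 other protein-coding genes, Odam among them, all at 0.548 TPM or less in every tumor. The start sites of Csn1s1 and Csn2, which point towards each other, are 33.2 kb apart, and that of Csn3 is 259.4 kb from that of Csn1s1. Wap lies on chromosome 11 (6531490 to 6538652), Lalba and Glycam1 on chromosome 15 (98310831 to 98313114 and 103393193 to 103395509), Mfge8 on chromosome 7 (86278655 to 86293946) and Btn1a1 on chromosome 13 (23548861 to 23557770), all on the minus strand.

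RefSeq promoter windows, of 250 bases before the start and 50 after it on build GRCm38.p6, were matched to 7 of the 10 genes and not to Csn1s2b, Csn3 and Btn1a1. The 250 bases before the start are shown for the neighbouring genes Csn1s1 and Csn2, whose levels did not follow each other, and for Csn1s2a and Wap, whose levels did although they lie on different chromosomes. Capitals mark TTCNNNGAA, the palindrome to which STAT proteins bind. Csn1s1 is at chr5:87665958-87666207 on the plus strand, Csn2 at chr5:87699426-87699675 on the minus strand, Csn1s2a at chr5:87774200-87774449 on the plus strand and Wap at chr11:6638650-6638899 on the minus strand.
Csn1s1: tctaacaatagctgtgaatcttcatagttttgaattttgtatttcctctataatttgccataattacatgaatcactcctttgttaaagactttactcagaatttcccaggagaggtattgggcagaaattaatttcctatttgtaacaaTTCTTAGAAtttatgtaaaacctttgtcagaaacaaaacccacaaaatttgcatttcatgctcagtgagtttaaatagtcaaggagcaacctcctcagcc
Csn2: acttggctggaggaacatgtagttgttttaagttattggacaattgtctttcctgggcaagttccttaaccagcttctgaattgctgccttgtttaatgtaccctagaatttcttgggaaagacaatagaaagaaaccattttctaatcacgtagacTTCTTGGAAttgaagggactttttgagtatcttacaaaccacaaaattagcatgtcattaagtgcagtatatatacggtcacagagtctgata
Csn1s2a: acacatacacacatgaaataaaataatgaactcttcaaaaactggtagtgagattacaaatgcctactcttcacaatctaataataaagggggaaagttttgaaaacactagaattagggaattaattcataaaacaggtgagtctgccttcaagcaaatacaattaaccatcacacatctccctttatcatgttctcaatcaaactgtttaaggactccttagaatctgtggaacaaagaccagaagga
Wap: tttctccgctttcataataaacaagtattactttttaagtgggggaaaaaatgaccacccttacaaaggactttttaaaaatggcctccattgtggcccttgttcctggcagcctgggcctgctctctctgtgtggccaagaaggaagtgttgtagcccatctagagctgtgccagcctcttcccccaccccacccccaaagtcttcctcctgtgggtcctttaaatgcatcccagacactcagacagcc

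Counted from the start base as 0, the match stood at -100 to -92 in Csn1s1, where it reads TTCTTAGAA, and at -93 to -85 in Csn2, where it reads TTCTTGGAA. Glycam1 held TTCCCAGAA at -145 to -137. Csn1s2a held TTCTTAGAA only after its RefSeq start, at 20 to 28, outside the stretch shown. The mm9 starts given above are on another build and were not aligned with the RefSeq starts, so these positions hold for the RefSeq starts only. No match stood in the windows of Wap, Lalba and Mfge8. Of 32851 promoter windows of the same length, 8.3% held this palindrome. The C/EBP spelling TTGCNNAA (10.8% of all windows), the NFI palindrome, TTGGC and GCCAA with any 5 bases between them (0.0365%), and the box TATAAA (13.6%) matched none of the 7 windows on either strand. A match in letters is not a measured binding site.

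The table holds TPM, a gene's part of all transcripts of a tumor after correction for transcript length, so levels can be set side by side between genes. TPM columns summed to between 994000.9 and 994984.0 and keep no sequencing depth, so the precision of low values is unknown. A panel of 9 epithelial markers summed to between 2203 and 7101 TPM, so epithelial transcripts were abundant in all 8 tumors. Endogenous Hmmr was at 9.39 to 15.2 TPM in the control group and 13.0 to 20.2 TPM in the HMMR-Tg group; the transgene is a human cDNA, so this mouse gene does not check the genotype labels. Skeletal muscle markers stood apart in tumors 1 and 6, at 371 and 410.4 TPM, and in tumor 3, at 119 TPM, against 14.1 to 42.2 TPM elsewhere. In bulk tissue, fewer cells that make milk proteins and less of their RNA in each cell cannot be told apart.

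All 8 tumors held milk protein transcripts, and the amount differed widely within each genotype. The 10 genes together took 10957, 7709.7, 1301 and 14326 TPM in control tumors 1 to 4, or 1.10%, 0.775%, 0.131% and 1.44% of all TPM. In HMMR-Tg tumors 5 to 8 they took 3802, 4569, 552 and 6097 TPM, or 0.382%, 0.459%, 0.0556% and 0.613%. Tumor 4 was highest and tumor 7 lowest. The genotypes overlapped, since control tumor 3 lay below 3 of the HMMR-Tg tumors.

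**Figure D1:**
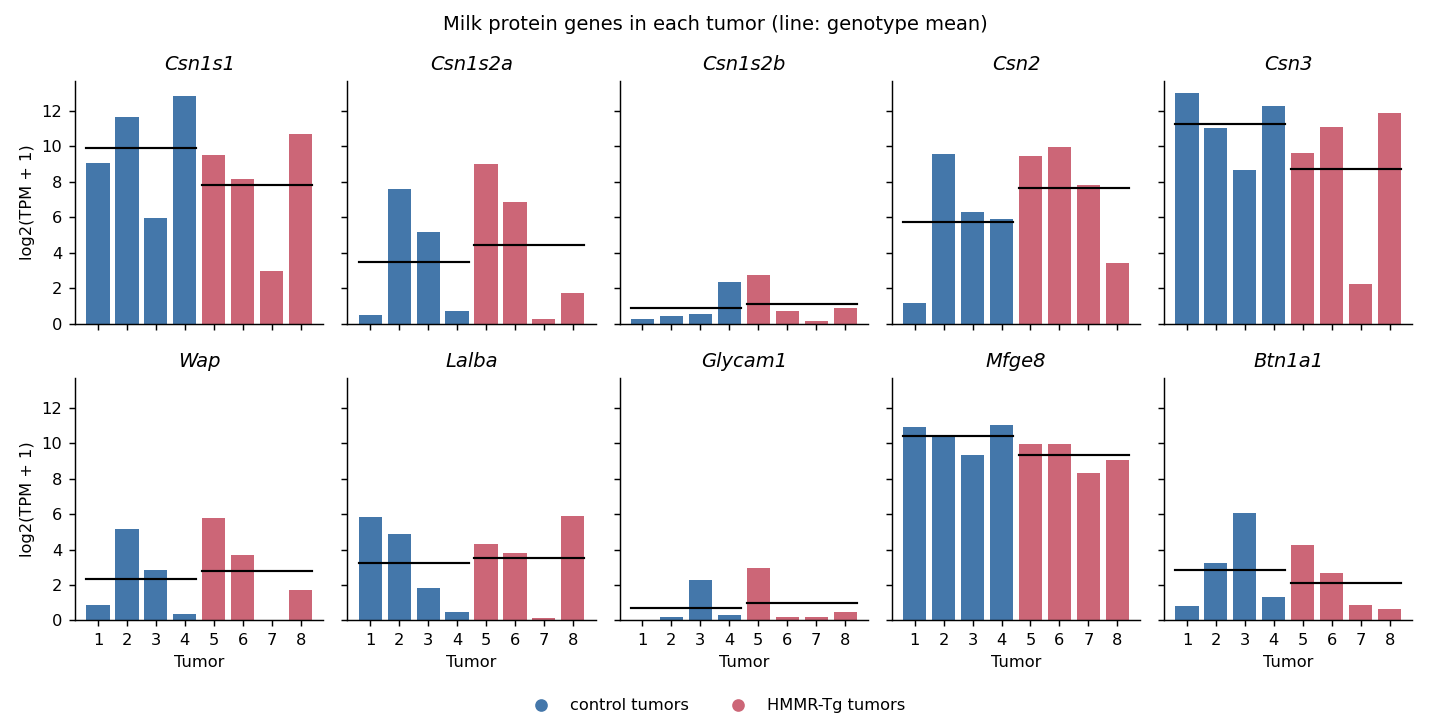
Level of each milk protein gene on the log2(TPM + 1) scale (vertical axis, from 0) in control tumors 1 to 4 (blue bars) and HMMR-Tg tumors 5 to 8 (red bars); black lines are genotype means. Csn1s1 and Csn3 had their lowest bar in tumor 7, Csn2 had its lowest in tumor 1, and Csn1s2a and Wap rose and fell over the same tumors.

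Csn3 encodes κ-casein, the surface protein of the micelle. It was at 8405, 2139, 412 and 4929.9 TPM in control tumors 1 to 4 and at 779.9, 2165, 3.69 and 3814 TPM in HMMR-Tg tumors 5 to 8. It was the gene with the 10th, 12th and 16th highest TPM of the whole table in tumors 1, 4 and 8, and ranked 11988 in tumor 7. The highest tumor was 2277-fold above the lowest.

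Csn1s1, the αs1-casein, was at 543, 3249, 61.7 and 7214 TPM in control tumors 1 to 4 and at 722, 282, 6.95 and 1687 TPM in HMMR-Tg tumors 5 to 8. It ranked 8 of all genes in tumor 4 and 24 in tumor 2. As for Csn3, tumor 7 was lowest and tumor 3 next, so the 2 low values fell in different genotypes. The range was 1037-fold.

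Csn2, the β-casein and a classical readout of prolactin action, followed another order. Its level was 1.23, 749.9, 76.1 and 58.4 TPM in control tumors 1 to 4 and 692, 986, 225 and 9.76 TPM in HMMR-Tg tumors 5 to 8. Tumor 1, which had the most Csn3 of any tumor, had the least Csn2, and tumor 7, almost without Csn1s1 and Csn3, still had 225 TPM of Csn2. In tumor 1 Csn3 exceeded Csn2 by 6848-fold, in tumor 8 by 391-fold and in tumor 4 by 84.4-fold. In tumors 2, 3, 5 and 6 the same ratio was 2.85, 5.42, 1.13 and 2.20, and in tumor 7 it was 0.0164. The ratio of Csn1s1 to Csn2, genes that are neighbours, ran likewise from 0.0309 in tumor 7 to 443 in tumor 1.

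Csn1s2a, an αs2-like casein, was at 0.407, 192, 35.2 and 0.650 TPM in control tumors 1 to 4. In HMMR-Tg tumors 5 to 8 it was at 513, 113, 0.177 and 2.26 TPM. It was thus present at 35.2 TPM or more in tumors 2, 3, 5 and 6 and at 2.26 TPM or less in the others, a range of 2908-fold that divided both genotypes. Csn1s2b, the second αs2-like gene, whose start is 33.5 kb away, was low throughout, at 0.180, 0.331, 0.455 and 4.02 TPM in the control group and 5.72, 0.661, 0.0975 and 0.824 TPM in the HMMR-Tg group. Only tumors 4 and 5 exceeded 1 TPM, and tumor 4 had almost no Csn1s2a.

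**Figure D2:**
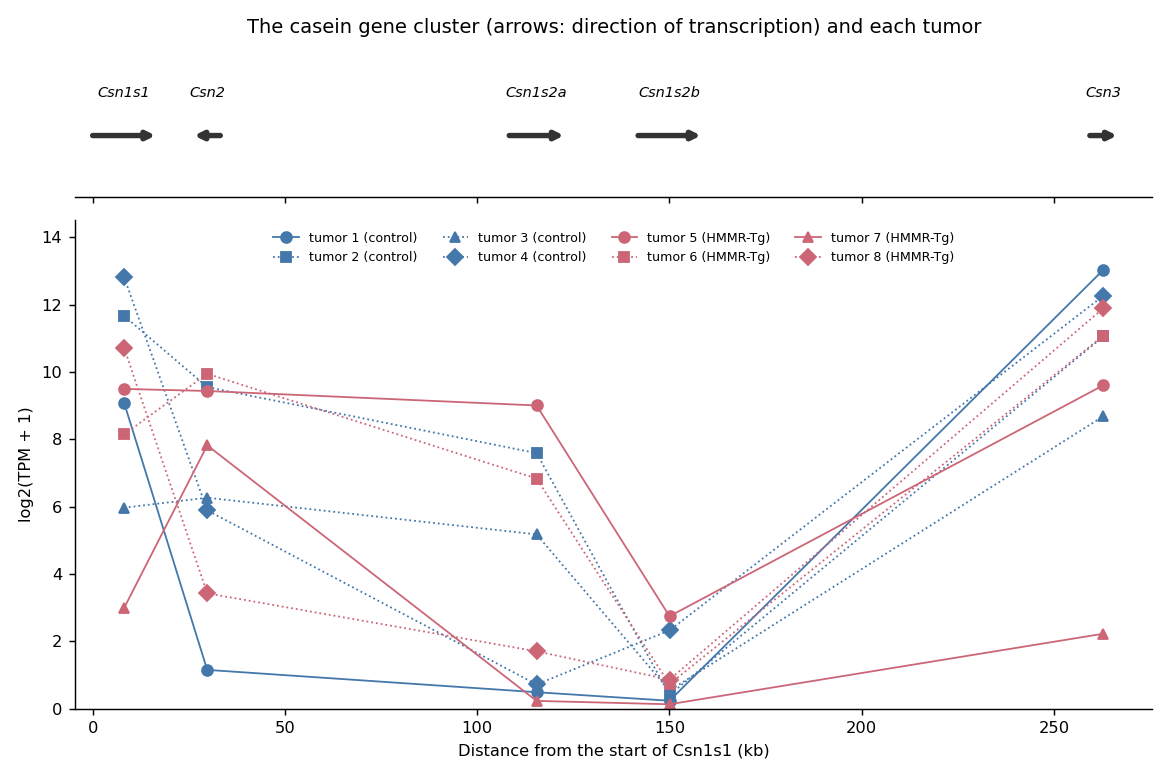
The casein gene cluster drawn to scale from the start of Csn1s1 (horizontal axis, kb; arrows show the direction of transcription) above the level of each gene on the log2(TPM + 1) scale (vertical axis), with 1 line for each tumor, blue for control and red for HMMR-Tg. Lines cross between neighbouring genes: tumor 1 fell from 543 TPM at Csn1s1 to 1.23 TPM at Csn2 and stood at 8405 TPM at Csn3, whereas tumor 7 rose from 6.95 TPM at Csn1s1 to 225 TPM at Csn2.

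Wap, the whey acidic protein of rodent milk, was at 0.830, 34.7, 6.31 and 0.297 TPM in control tumors 1 to 4 and at 54.5, 12.2, 0 and 2.26 TPM in HMMR-Tg tumors 5 to 8, where tumor 7 is listed at 0. Its highest tumors, in order, were 5, 2, 6 and 3, the same as for Csn1s2a. Lalba, α-lactalbumin, is the subunit that turns the galactosyltransferase B4GALT1 into lactose synthase. It was at 57.0, 28.7, 2.56 and 0.366 TPM in the control group and 19.0, 12.9, 0.0869 and 58.0 TPM in the HMMR-Tg group. Its highest values, in tumors 1 and 8, were nearly alike and came from different genotypes, and both were tumors with little Wap and Csn1s2a.

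Mfge8 encodes lactadherin, a fat globule protein that also bridges phosphatidylserine on dying cells to integrins of phagocytes, and it is not made by the alveolar epithelium alone. It was the most even of the 10 genes by ratio of highest to lowest tumor, 6.72. Control tumors 1 to 4 held 1948, 1308, 637 and 2116 TPM and HMMR-Tg tumors 5 to 8 held 990.3, 990.2, 315 and 522 TPM. Tumors 1, 2 and 4 were above every HMMR-Tg tumor, and control tumor 3 was below tumors 5 and 6, so the genotypes overlapped. Btn1a1, butyrophilin, binds xanthine oxidoreductase at the membrane that wraps the fat globule. It was at 0.759, 8.33, 66.7 and 1.55 TPM in the control group and 18.1, 5.44, 0.796 and 0.583 TPM in the HMMR-Tg group, highest in tumor 3 and next in tumor 5.

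Glycam1 encodes a mucin secreted into milk, which in lymph nodes is carried by high endothelial venules as a ligand of L-selectin. Its level was 0, 0.125, 3.79 and 0.244 TPM in control tumors and 6.79, 0.156, 0.151 and 0.364 TPM in HMMR-Tg tumors. Only tumors 3 and 5 exceeded 1 TPM. Markers of lymph node and high endothelial venules were also examined, and 9 of 10 were found in the table. Their sum was 2.84 TPM in tumor 3 and 4.58 TPM in tumor 5, within the 2.22 to 9.68 TPM of tumors 1 to 6 and 8, and Chst4, the sulfotransferase of these venules, was at 0 in every tumor. The exception was tumor 7, at 283 TPM, of which Cr2 made 239.6 and Madcam1 39.8 TPM, and there Glycam1 was at 0.151 TPM. Adipocyte markers were highest in tumors 5, 3 and 6, where they summed to 164, 140.2 and 114 TPM, against 22.1, 40.8, 41.9, 40.03 and 103 TPM in tumors 1, 2, 4, 7 and 8. These include the tumors with the most Glycam1 and Btn1a1, and their part in those levels was not tested.

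The make-up of the milk transcripts differed from tumor to tumor. Csn3 led in tumors 1, 6 and 8, with 76.7%, 47.4% and 62.6% of the milk protein TPM. Csn1s1 led in tumors 2 and 4, with 42.1% and 50.4%. Mfge8 led in tumors 3, 5 and 7, with 48.9%, 26.0% and 57.1%. Tumor 5 had the most even mixture, with Csn3 at 20.5%, Csn1s1 at 19.0%, Csn2 at 18.2% and Csn1s2a at 13.5%. Csn2 reached its largest share, 40.8%, in tumor 7, the tumor with the fewest milk transcripts. Wap never exceeded 1.43%.

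**Figure D3:**
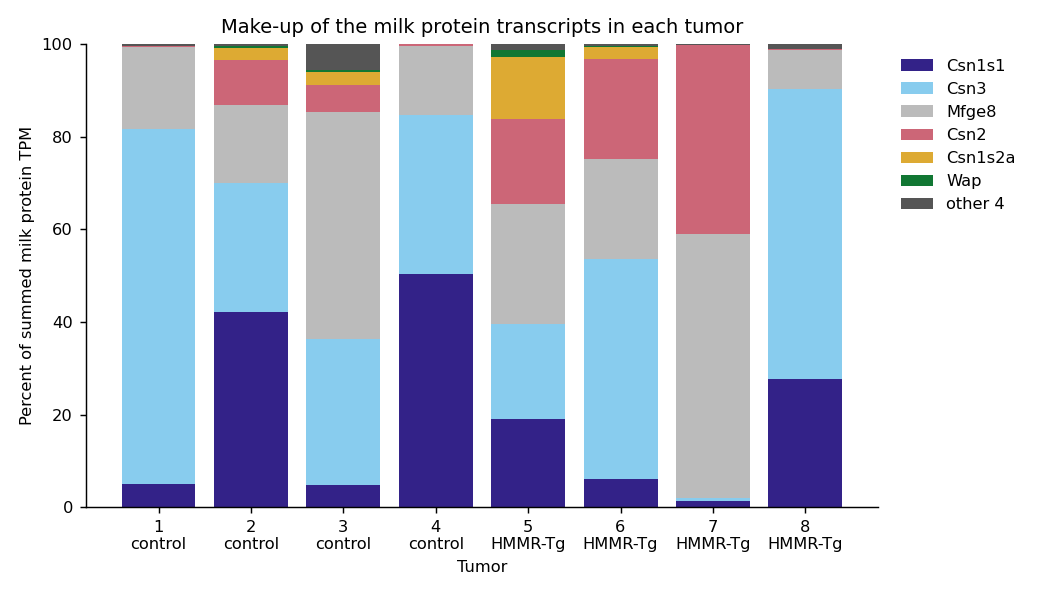
Share of each milk protein gene in the summed TPM of the 10 genes (vertical axis, percent, each bar adding to 100) for control tumors 1 to 4 and HMMR-Tg tumors 5 to 8. The leading colour changes between tumors of the same genotype: Csn3 fills 76.7% of tumor 1 and Csn1s1 50.4% of tumor 4, and Csn2 fills 40.8% of tumor 7.

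Relations among the genes were examined over the 8 tumors for all 45 pairs, on the log2(TPM + 1) scale, with exact permutation of the pairings (two-sided) and Benjamini-Hochberg adjustment over the 45. Csn1s2a and Wap, on chromosomes 5 and 11, were the only pair that passed. Pearson's r was 0.981 (exact permutation p = 7.44e-05, adjusted p = 0.00335) and Spearman's rho 0.976 (exact permutation p = 0.000397, adjusted p = 0.0179). Without tumors 2 and 5, the farthest from the median of Csn1s2a, r was 0.969, and leaving out each tumor in turn gave 0.972 to 0.986. Tumors 1, 4, 7 and 8 had little of both genes and tumors 2, 3, 5 and 6 more of both, and each of these sets is too small for a correlation of its own. Ranked by r with Wap, Csn1s2a was the closest of the 14834 other genes tested, and ranked by r with Csn1s2a, Wap was the 3rd. Summed markers of basal and myoepithelial cells were 98.8, 868, 1015 and 127 TPM in tumors 1 to 4 and 1294, 506, 221 and 409.9 TPM in tumors 5 to 8. The sum was highest in tumors 2, 3, 5 and 6, where Krt14 alone was at 338, 943, 1131 and 310 TPM. The mean log2(TPM + 1) of the 8 markers followed another order, highest in tumors 2, 8, 5 and 7 (5.04, 4.61, 4.15 and 3.65). All 8 of these markers were above 0 in every tumor, and their part in the relation was not tested.

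**Figure D4:**
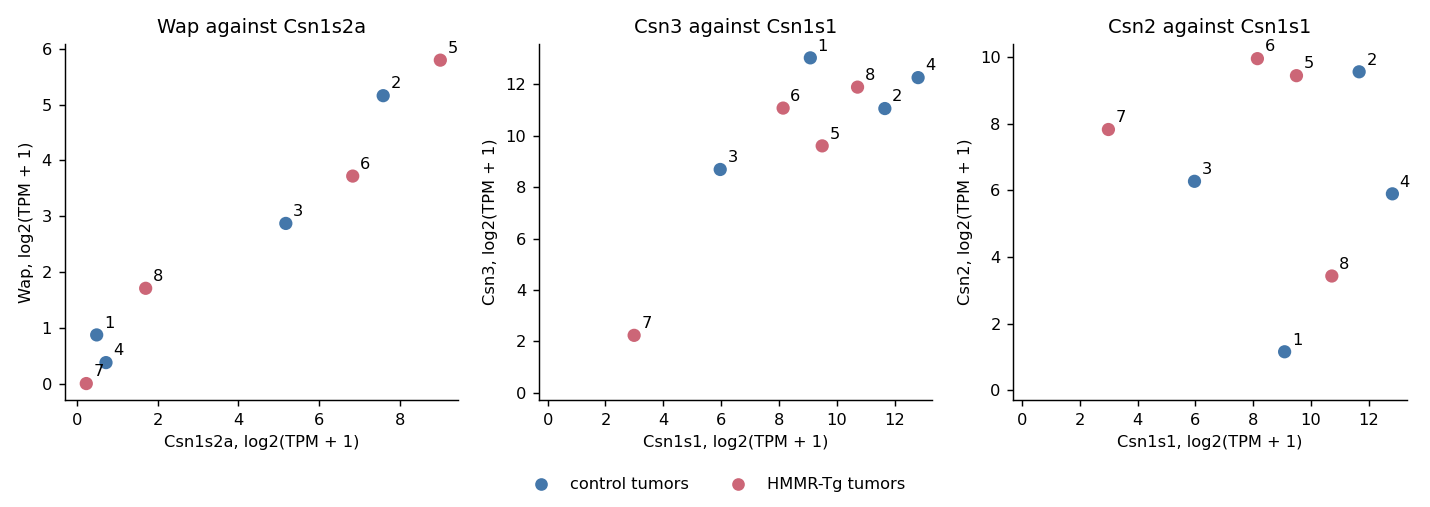
Levels of 3 pairs of milk protein genes on the log2(TPM + 1) scale (both axes); each point is a tumor with its number, blue for control and red for HMMR-Tg. Wap followed Csn1s2a (r = 0.981), Csn3 followed Csn1s1 less closely (r = 0.845), with tumor 7 far from the rest, and Csn2 did not follow Csn1s1 (r = -0.12).

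Csn1s1 and Csn3, at the ends of the cluster, had r = 0.845 (exact permutation p = 0.0101, adjusted p = 0.172) and rho = 0.595 (exact permutation p = 0.132, adjusted p = 0.59). The r was 0.528 without tumors 4 and 7, so the relation rests in part on them. Csn3 and Mfge8 had r = 0.784 (exact permutation p = 0.0115, adjusted p = 0.172), and 0.41 without tumors 3 and 7. Glycam1 and Btn1a1 had r = 0.778 (exact permutation p = 0.0317, adjusted p = 0.267), and -0.18 without tumors 3 and 5. Between the neighbours Csn1s1 and Csn2, r was -0.12 (exact permutation p = 0.775, adjusted p = 0.898), and between Csn2 and Csn3 it was -0.36 (exact permutation p = 0.387, adjusted p = 0.898). Of the 45 pairs, 7 had r above 0.7 and 13 had r below 0.

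The question of the design is whether human HMMR expression alters the tumors, and no milk protein gene differed between the genotypes after adjustment over all genes. In limma, fitted on log2(TPM + 1) over the 14835 genes whose mean reached 1 TPM, 0 of the 10 genes had an adjusted p under 0.05, against 9 genes or 0.0607% of all those tested. At an unadjusted p under 0.05 the count was 1 of 10, against 3.46% of all genes, with 1 lower in HMMR-Tg tumors (1.83% of all genes) and 0 higher (1.62%). In no member were the genotypes without overlap, against 2.23% of all genes. The mean was higher in HMMR-Tg tumors for 6 of 10, against 48.7% of all genes, and the median difference was 0.25 (log2) against -0.01.

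The intervals of these differences were wide. Csn3 was at 3971 ± 3493 TPM in the control group and 1691 ± 1674 TPM in the HMMR-Tg group (SD, n = 4 each), and its log2 difference, HMMR-Tg minus control as throughout, was -2.56 (SE 1.90, 95% interval -6.82 to 1.70). Csn1s1 differed by -2.05 (95% interval -6.08 to 1.99), and Csn2 by 1.94 in the other direction (95% interval -2.09 to 5.97). Without tumor 7 the difference of Csn3 was -0.40 and that of Csn1s1 -0.43, and without tumor 5 that of Csn1s2a was -0.57 and that of Wap -0.51. That of Csn2 was 0.42 without tumor 1 and 3.35 without tumor 8. For Csn1s2a the log2 difference was 0.95 (95% interval -3.85 to 5.75), for Wap 0.49 (-2.48 to 3.46) and for Lalba 0.27 (-2.87 to 3.41). For Btn1a1 it was -0.75 (-3.38 to 1.87), and for the low genes Csn1s2b and Glycam1 it was 0.24 (-1.18 to 1.66) and 0.27 (-1.33 to 1.87). Differences of several-fold in either direction lie within most of these intervals, so equal levels were not shown.

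Mfge8 had the narrowest interval. It was at 1502 ± 674 TPM in the control group and 704 ± 341 TPM in the HMMR-Tg group (SD, n = 4 each), a log2 difference of -1.10 (SE 0.47, 95% interval -2.16 to -0.04). Its unadjusted limma p was 0.0427 and its adjusted p 0.9998, and the two-sided exact permutation p was 0.114, where 0.0286 is the smallest that 4 against 4 tumors allow. Without tumor 3, 5 or 6, each left out alone, the unadjusted limma p was 0.00728, 0.0285 and 0.0298 (adjusted p = 0.626, 0.972 and 0.9997). It was between 0.069 and 0.121 without tumor 1, 2, 4, 7 or 8, and 0.0645 with no filter on low values. In each of these last settings the interval of Mfge8 included 0. The 4 genes examined with it, the integrin subunits Itgav, Itgb3 and Itgb5 that bind lactadherin or form such receptors and its relative Edil3, had higher means in HMMR-Tg tumors, by 0.70, 0.78, 0.14 and 1.12, and 0 of 4 passed.

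**Figure D5:**
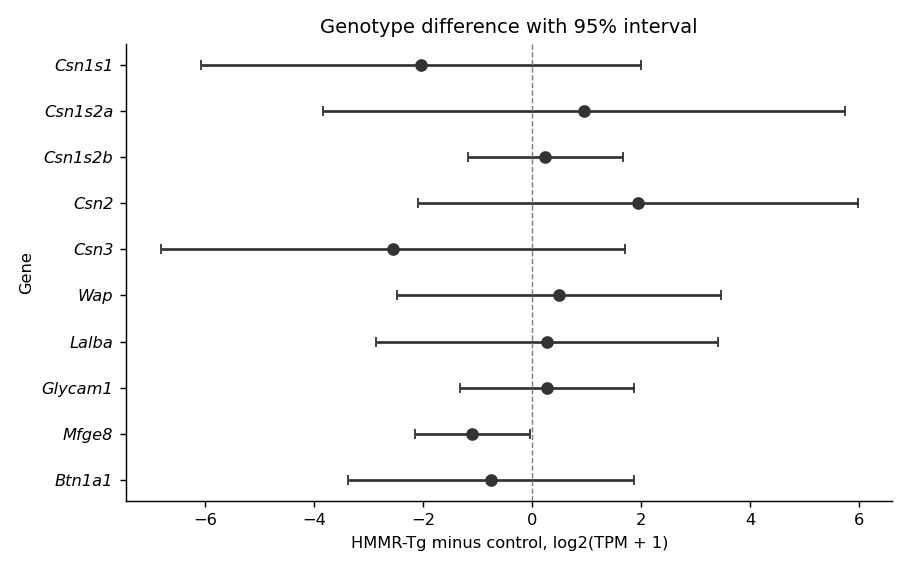
Difference between HMMR-Tg and control tumors for each milk protein gene (horizontal axis, log2(TPM + 1), HMMR-Tg minus control; points, with bars for the 95% interval of the limma fit; dashed line, no difference). All bars but that of Mfge8, from -2.16 to -0.04, cross 0, and no gene passed after adjustment over 14835 genes.

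The spread over the 8 tumors placed most of the members near the top of the transcriptome. Ranked by the SD of log2(TPM + 1) among the 14835 genes tested, Csn1s2a was 6th (SD 3.58), Csn3 9th (3.43), Csn1s1 11th (3.18) and Csn2 12th (3.16). Lalba, Wap and Btn1a1 ranked 55, 72 and 137, with SDs of 2.31, 2.19 and 1.95. Glycam1, Csn1s2b and Mfge8 ranked 1049, 1507 and 1670, with SDs of 1.13, 0.98 and 0.94, so 7.07% to 11.3% of all genes varied as much.

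Regulators of milk genes were compared with Csn2 over the same tumors. Prlr, the prolactin receptor, was at 27.0, 20.7, 21.9 and 38.6 TPM in the control group and 14.6, 17.1, 1.93 and 11.5 TPM in the HMMR-Tg group, which did not overlap. Its log2 difference was -1.44 (limma p = 0.0238, adjusted p = 0.9998, exact permutation p = 0.0286). It was lowest in tumor 7, the tumor with the least Csn1s1, Csn3 and Wap, but tumor 7 had more Csn2 than tumor 4, where Prlr was highest. Elf5, an ETS factor of alveolar cells, was at 297, 273, 129 and 166 TPM in the control group and 137, 220.4, 60.3 and 90.0 TPM in the HMMR-Tg group, which differ by -0.85 (limma p = 0.0705, adjusted p = 0.9998, exact permutation p = 0.143). Stat5a ranged from 12.3 to 61.4 TPM and Stat5b from 10.7 to 44.9 TPM, and Cish, a STAT5 target that restrains the pathway, from 6.37 to 17.1 TPM.

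Across the 8 tumors Csn2 had r = -0.22 with Prlr, 0.0493 with Stat5a, -0.25 with Stat5b, -0.04 with Elf5 and 0.429 with Cish. The exact permutation p-values were 0.607, 0.907, 0.554, 0.931 and 0.281, and each was 0.931 after adjustment over these 5. Spearman's rho was -0.31, 0.167, 0.119, 0.0714 and 0.429, with exact permutation p from 0.299 to 0.882 (adjusted p = 0.882). Leaving out the 2 tumors farthest from the median of each regulator gave r of -0.22, -0.56, 0.291, 0.789 and 0.256. Of these the value for Elf5, without tumors 1 and 7, moved most (exact permutation p = 0.0583). The wider list of prolactin signaling and alveolar regulators had 20 genes, of which 18 were tested. None passed after adjustment, 8 had higher and 10 lower means in HMMR-Tg tumors, and the median difference was -0.12. Besides Prlr and Elf5, its largest statistics were those of Socs1, an inhibitor of JAK kinases (0.80), and Jak2 (0.57).

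Other secreted proteins of milk were more abundant than the listed members, summing to 13466 to 25729.7 TPM in the control group and 4031 to 20028 TPM in the HMMR-Tg group. In this sum Trf, at 10459 TPM in control tumor 1, matched 2 gene IDs, of which only the first was counted. None of the 14 passed after adjustment, 4 had higher and 10 lower means in HMMR-Tg tumors, and the median difference was -0.63. Saa3, a serum amyloid A made by mammary epithelium and fat, was at 9.80 ± 10.4 TPM in the control group and 50.2 ± 33.1 TPM in the HMMR-Tg group (SD, n = 4 each) and differed by 2.45 (limma p = 0.00405, adjusted p = 0.9998, exact permutation p = 0.0571). Wfdc3 (-1.24), which like Wap carries the disulfide core fold of protease inhibitors, and Pigr (-1.65), the receptor that carries IgA into milk, had unadjusted limma p-values of 0.0289 and 0.0454 and exact permutation p of 0.0571 and 0.143. Wfdc18 (-1.46), also with this fold, had limma p = 0.0544 and exact permutation p = 0.2, at 4259 ± 3843 TPM in the control group and 1224 ± 712 TPM in the HMMR-Tg group (SD, n = 4 each; adjusted p = 0.9998).

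Sums over the genes for the other parts of milk spanned narrower ranges. Genes of milk fat synthesis and secretion summed to between 1356 and 1764 TPM, and of 21 tested none passed, with a median difference of -0.11. Cd36, a fatty acid transporter, was at 3.74 ± 1.74 TPM in the control group and 7.198 ± 1.205 TPM in the HMMR-Tg group (SD, n = 4 each) and differed by 0.85, without overlap between genotypes (limma p = 0.0218, adjusted p = 0.9998, exact permutation p = 0.0286). Dgat2, which completes triglycerides, differed by 0.81 (limma p = 0.0484, adjusted p = 0.9998, exact permutation p = 0.0571), Xdh, the partner of butyrophilin, by -0.67 and Cidea, a lipid droplet protein, by -0.54. The 9 genes of lactose synthesis summed to between 426 and 774 TPM, and none passed. Their largest statistics were those of B4galt1 (0.57), the catalytic partner of α-lactalbumin, the glucose transporter Slc2a1 (0.77), Hk2 (0.60) and Slc35a2 (-0.21), which carries UDP-galactose into the Golgi.

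None of the 13 involution genes passed, with 8 means higher and 5 lower in HMMR-Tg tumors and a median difference of 0.14. Cd14 (-0.67), Bcl3 (0.48), Lif (0.32), the cytokine that starts STAT3 signaling in involution, and Cebpd (0.36) had its largest statistics. The 9 genes of the secretory pathway, among them the casein kinase Fam20c (-0.23), had a median difference of -0.20, with 4 means higher, 5 lower and none past the test. Of 4 relatives of butyrophilin only Btnl9 was expressed highly enough to be tested (0.19). Luminal progenitor markers, the cells from which alveolar cells arise, had a median difference of -0.56 over 10 genes, hormone-sensing luminal markers 0.15 over 7 and pan-epithelial markers -0.07 over 9. Among the pan-epithelial markers Cldn3, a tight junction claudin, had the largest statistic, at 399 ± 43.8 TPM in the control group and 218 ± 55.8 TPM in the HMMR-Tg group (SD, n = 4 each). The genotypes did not overlap in it, and its log2 difference was -0.91 (limma p = 0.00375, adjusted p = 0.9998, exact permutation p = 0.0286). Basal and myoepithelial markers had a median difference of 0.94 over 8, with 6 means higher and 2 lower in HMMR-Tg tumors. Cnn1, a smooth muscle calponin, had their largest statistic, at 1.42 (limma p = 0.0086, adjusted p = 0.9998, exact permutation p = 0.0286). The difference was 0.07 for Krt14, -0.45 for Krt5 and -0.92 for Trp63. Myh11 (1.47) was at 73.7 TPM in tumor 7 and at 1.92 TPM or less in every other tumor. None of these marker genes passed after adjustment.

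By the rule of highest Pearson's r with the mean log2(TPM + 1) of the 5 caseins, over 8 tumors and 12278 named genes with the 10 members left out, the closest patterns included those of Klhl25 (0.945), Pla2g7 (0.934), Krt10 (0.89), Ddx59 (0.886), Rabif (0.883), Plekhf1 (0.878), Rgma (0.877), Galnt4 (0.873) and Serinc2 (0.87). Pla2g7, a secreted phospholipase, ranged from 54.7 TPM in tumor 7 to 296 TPM in tumor 6. The same search for single members, added after their values were seen, gave Mrpl14 (0.955) and Akap10 (0.951) for Csn2, Ssbp4 (0.945), Deptor (0.942) and Spp1 (0.936) for Csn3, and Fgr (0.959) and Epn2 (0.945) for Wap. Spp1 encodes osteopontin, a secreted phosphoprotein abundant in milk, whose gene also lies on chromosome 5. These correlations were picked as the highest among 12278 over 8 tumors and are descriptions only.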

How the data were processed

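RNA of 8 frozen bulk mouse mammary tumors, 4 per genotype, was sequenced, and 1 table with a column for each tumor was used; 0 columns were left out. The values are gene-level TPM, computed by the authors before they deposited the table. The sources differ on how: the methods name TRIzol, single-end reads, Kallisto and tximport, whereas the labels name an RNeasy kit and TruSeq libraries, and STAR 2.4.0f1, bedtools and SAMtools 0.1.18 are named in the submitters' processing notes. All give mouse build mm9. Which route made the values was not settled, so reads shared between genes may have been handled either way. Among protein-coding transcripts, 7 of the 10 members share no 31-base sequence with other genes. Csn1s2b, Csn3 and Btn1a1 share 0.36%, 0.475% and 0.436% of theirs. Noncoding transcripts and pseudogenes were not searched. TPM holds no depth, so no counting interval could be given, and no count model was used.

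Symbols and mm9 positions came from the GENCODE M1 annotation, with 25388 of 35539 IDs paired; RefSeq gave older symbols and the GRCm38.p6 promoter windows. Of 168 symbols in 17 gene lists, 167 were matched, Trf to 2 IDs, of which the first was used. Columns were assigned to tumors by the identifiers in the labels and to genotypes by the titles.

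Values were taken as log2(TPM + 1). Genes whose mean reached 1 TPM were fitted by genotype in limma 3.58.1 (R 4.3.3) with a mean-variance trend, and Benjamini-Hochberg adjustment covered all 14835 genes. Fold changes on this scale understate those of low genes. Single values were tested by exact permutation over the 70 arrangements of tumors, and relations over the 40320 pairings (Python 3.11.15, scipy 1.17.1). The scripts were tested on simulated data. The members and lists were chosen with earlier results of these data known. The text names all 10 members, up to 4 genes of each other list with the largest statistic, 5 regulators compared with Csn2, and the 10 genes most like the mean of the caseins, of which 1 is not reported here. Alternatives tried were another pseudocount (0.1 or 5), another filter (none, or a mean of 5 TPM), other scalings, other moderation, array weights and leaving out tumors.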

Additional observations from a re-analysis of the deposited data

Results flagged for a closer look

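In groups of 4 tumors, the highest or lowest value was compared with its nearest neighbour as a share of the whole range (Dixon's ratio). Over 32 groups of values, 3 exceeded the critical ratio, and chance gives about 1 in 20. Csn1s2b stood at 2.33 on the log2(TPM + 1) scale in control tumor 4, far above the other control tumors (ratio 0.855). Glycam1 stood at 2.26 in control tumor 3 (ratio 0.861) and at 2.96 in HMMR-Tg tumor 5 (ratio 0.911), each far above the other tumors of its genotype. All 3 values belong to genes at under 7 TPM.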

How the results depend on the processing

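The count of milk protein genes past the adjusted threshold was 0 under all 20 alternatives. Their median log2 difference was -0.94 to 0.54 when each tumor was left out, and -1.28 to 0.25 under the other settings. The lowest value came without tumors 3, 5 and 6, which had the highest adipocyte markers. It was -0.44 when tumors 1, 3 and 6, highest in skeletal muscle markers, were left out. Both settings were chosen after seeing the data. Csn1s1, Csn3 and Mfge8 stayed lower in HMMR-Tg tumors under all 20, Mfge8 by -2.11 to -0.77 with a lowest adjusted limma p of 0.547. The count at an unadjusted p under 0.05, 1 with all tumors, was 0 without tumor 1, 2, 4, 7 or 8 and with no filter, and 1 under the other 14. Glycam1, tested under 17 of them, stayed higher. The other 6 members changed sign when at least 1 tumor was left out: Csn2, for example, was at -0.83 without tumors 1, 3 and 6, and Btn1a1 at 0.32 without tumor 3. With each tumor left out, r between Csn2 and the regulators ran from -0.21 to 0.701 for Stat5a, -0.60 to 0.63 for Stat5b and -0.24 to 0.51 for Elf5. That of Csn1s2a with Wap ran from 0.972 to 0.986, and was 0.963 with a pseudocount of 0.1. Its adjusted exact permutation p was at most 0.0268. No paired analysis was possible because the genotypes share no replicate numbers. TPM keeps no depth, so how far low values such as those of Glycam1 and Csn1s2b can be resolved is unknown.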
